A study of Homo sapiens with 11 samples.

Results

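Granins and the enzymes that process prohormones are the cargo and the cutting machinery of the dense-core secretory granule, and 10 of their genes were followed across 3 human lung cell lines. The 10 genes are CHGA, CHGB, SCG2, SCG3, SCG5, VGF, PCSK1, PCSK2, CPE and PCSK1N, out of 57815 genes in the deposited RNA tables. They were picked by symbol and not by level, though with earlier results of these data known. All 10 were among the 19066 genes tested, those with at least 1 FPKM (fragment counts divided by transcript length and by the mapped fragments of the library) in at least 2 libraries. Of the 10, 8 reached that level only in carcinoma libraries and so had to differ from the fibroblasts, and their number supports nothing by itself.

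Both DMS153 and H209 are cell lines long established from small cell carcinomas of the lung, and MRC5 is a noncancerous lung fibroblast line, also long established. All of them were grown in the same kind of serum-containing RPMI medium, with no drug, no edit and no transgene named in the labels. RNA-seq libraries numbered 3 for DMS153, 2 for H209 and 3 for MRC5, while Hi-C, which counts contacts between distant stretches of the genome, gave 1 library of each line. Each carcinoma group is a single line, and no label states that its numbered libraries are separate cultures. The p-values below therefore reflect how these particular libraries scatter, which could be technical scatter alone.

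In neuroendocrine cells, peptide hormones are made as longer precursors that are sorted into granules in the trans-Golgi network together with the granins, acidic proteins that aggregate at low pH and high calcium. Inside the granule the prohormone convertases PC1/3 (PCSK1) and PC2 (PCSK2) cut precursors after pairs of basic residues, and carboxypeptidase E (CPE) trims the basic residues left behind. The products of PCSK1N (proSAAS) and SCG5 (7B2) bind PC1/3 and PC2 respectively, the first as an inhibitor and the second as a chaperone that PC2 needs to mature. Granins in tissue sections and serum are long-standing markers of neuroendocrine tumours, small cell lung carcinoma among them.

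Several of these genes share short sequences in their promoters. The RefSeq promoter table (GRCh38.p14, gene strand) held 10 promoters of 8 of the 10 genes, with a pair of start sites each for PCSK1 and PCSK2 and no entry for CHGB and SCG2. The letters TGACGTCA, the palindromic cAMP response element known as a site for CREB family factors, stood within 250 bases before the start of 3 genes, at -54 in CHGA, at -79 in VGF and at -77 from the upstream start of PCSK1. Counted by promoter, these were 3 of 10, and the same letters were found in 1.65% of all 35116 promoters of the table, searched on both strands over the same length. The shorter TGACG, which every TGACGTCA contains, stood before 6 of the 8 genes. By promoter it was in 7 of 10, beside 21.2% of all promoters. The 150 bases before the start are given below for the 3 genes with the full element and for SCG5, the gene whose FPKM overlapped between every pair of lines, with capitals marking TGACGTCA or TGACG on either strand.

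CHGA, chr14:92923000-92923149, plus strand: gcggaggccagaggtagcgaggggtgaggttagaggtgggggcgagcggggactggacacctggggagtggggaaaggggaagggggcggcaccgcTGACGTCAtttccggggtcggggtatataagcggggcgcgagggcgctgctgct
VGF, chr7:101165570-101165719, minus strand: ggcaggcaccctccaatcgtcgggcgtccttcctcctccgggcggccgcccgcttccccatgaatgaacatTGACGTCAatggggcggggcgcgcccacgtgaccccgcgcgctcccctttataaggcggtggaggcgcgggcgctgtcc
PCSK1 upstream start, chr5:96433249-96433398, minus strand: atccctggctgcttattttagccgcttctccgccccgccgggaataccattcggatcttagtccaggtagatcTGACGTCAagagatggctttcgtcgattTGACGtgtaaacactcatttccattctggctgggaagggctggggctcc
SCG5, chr15:32641560-32641709, plus strand: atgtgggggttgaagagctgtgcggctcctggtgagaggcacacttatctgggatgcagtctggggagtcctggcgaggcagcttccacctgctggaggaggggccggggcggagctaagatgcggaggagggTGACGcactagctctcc

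The element sat closer to the start in CHGA than in VGF and PCSK1, and the PCSK1 window held a further TGACG at -49. In SCG5 only the short form was present, at -17. SCG3, PCSK2, CPE and PCSK1N, whose sequences are not shown, also lacked TGACGTCA in the window. Unlike SCG5, they were higher in every carcinoma library than in any MRC5 library, as were the genes with the full element. Other elements were counted in the same way. GGGCGG, the GC box, stood before 6 of the 8 genes, in 7 of 10 promoters, beside 42.6% of all promoters. TATAAA stood before 2 genes, in 2 of 10 promoters, beside 10.7%. CAGCTG, an E-box, stood before 2 genes, in 2 of 10 promoters, beside 14.0%. A match is a run of letters in this window and no measure of binding.

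Markers of the labelled cell types were checked first. All 10 neuroendocrine markers checked, among them INSM1 and SYP, averaged at least 1 FPKM in both carcinoma lines, and 2 of them (SYT1 and UCHL1) did so in MRC5. UCHL1 was highest in the fibroblasts, at 734 FPKM against 269.5 (DMS153) and 554 (H209), and was called lower in DMS153 than in MRC5 (-1.44, limma adjusted p = 6.22e-08). All 10 fibroblast markers did so in MRC5, with a summed level of 7758 to 8595 FPKM against 7.36 to 9.45 in DMS153 and 27.6 to 32.7 in H209. Between 13425 and 13560 genes reached 1 FPKM in the MRC5 libraries and between 15963 and 16580 in the carcinoma libraries, and low values placed library depth between 0.953 and 1.68 relative to the first MRC5 library. The DMS153 libraries differed from the rest in microRNA loci, which made up 39.9% to 44.1% of all FPKM there and no more than 0.045% elsewhere. Other genes whose loci overlap a member averaged under 1 FPKM in every line.

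The chromogranins were abundant in both carcinoma lines and close to 0 in the fibroblasts. CHGA (ENSG00000100604.8, chr14:93389425-93401638 in hg19, as are all loci below), which encodes chromogranin A, stood at 256, 219 and 348 FPKM in the DMS153 libraries and at 361 and 350 in the H209 libraries. Its MRC5 libraries gave 0.00456 and 0.00395 FPKM, and 1 library was listed at 0. Every carcinoma library lay far above every fibroblast library, and both H209 libraries lay above all 3 of DMS153. On the log2(FPKM + 1) scale CHGA was 8.07 ± 0.14 (SE) higher in DMS153 than in MRC5 and 8.47 ± 0.16 higher in H209 (limma, Benjamini-Hochberg adjusted p = 6.86e-11 and 1.79e-10). With MRC5 this close to 0, the size of such a change depends on the pseudocount of 1 FPKM, and it is no measure of a fold.

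CHGB (ENSG00000089199.5, chr20:5892076-5906007), which encodes chromogranin B, stood at 147, 118.1 and 203 FPKM in DMS153 and at 91.1 and 99.95 in H209. In MRC5 it read 0.0700, 0.116 and 0.179 FPKM. Here the order of the carcinoma lines was the opposite of that for CHGA, with every DMS153 library above both H209 libraries. The ratio of CHGA to CHGB was accordingly 1.75, 1.85 and 1.71 in the DMS153 libraries and 3.97 and 3.501 in the H209 libraries, with no overlap. This and the other ratios below were chosen after their values were seen, except that of PCSK2 to PCSK1, and none was tested.

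SCG2 and SCG3 split the carcinoma lines in the same manner, one to each side. SCG2 (ENSG00000171951.4, chr2:224461658-224467221) encodes secretogranin II, the precursor of secretoneurin, and stood at 133, 123 and 172 FPKM in DMS153, 65.9 and 54.3 in H209, and 0.496, 0.424 and 0.585 in MRC5. SCG3 (ENSG00000104112.4, chr15:51973550-52013223), whose product secretogranin III binds chromogranin A and granule membranes, stood at 61.8, 51.5 and 63.8 FPKM in DMS153 and 99.2 and 97.4 in H209. In MRC5, SCG3 was at most 0.0171 FPKM and listed at 0 in 1 library. SCG2 was higher in each DMS153 library than in either H209 library, and SCG3 was lower.

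Among the granins, VGF differed most between the carcinoma lines. This gene (ENSG00000128564.5, chr7:100805790-100808874), a growth-factor-inducible granin whose product is cut into several peptides, stood at 53.2, 45.01 and 80.1 FPKM in DMS153 and at 7.499 and 5.42 in H209. Its MRC5 libraries read 0.554, 0.566 and 0.376 FPKM. The 3 lines were separate, and on the log2(FPKM + 1) scale the difference from MRC5 was 2.30 ± 0.22 in H209 and 5.29 ± 0.20 in DMS153.

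SCG5 (ENSG00000166922.4, chr15:32933877-32989299) was the exception among the 10. It stood at 43.7, 38.3 and 50.4 FPKM in DMS153, 47.9 and 57.1 in H209, and 47.7, 53.0 and 47.9 in MRC5. The libraries of every pair of lines overlapped. The difference in log2(FPKM + 1) was -0.17 in DMS153 against MRC5 (95% interval -0.42 to 0.08, limma adjusted p = 0.166), 0.08 in H209 against MRC5 (-0.20 to 0.35, 0.567) and -0.25 in DMS153 against H209 (-0.52 to 0.03, 0.0911). At this scaling the intervals leave out a change of 1 log2 unit, the size used for a call. The sign against MRC5 turned with the scaling: it was 0.14 for DMS153 when libraries were scaled without small RNA and mitochondrial genes, and -0.53 for H209 under median ratio scaling (limma adjusted p = 0.00283). DMS153 was lower than MRC5 by a log2 change of -0.64 under median ratio scaling and -0.60 under summed-FPKM scaling (limma adjusted p = 0.000395 and 0.000357), and lower than H209 by -0.89 under the latter (6.38e-05), all under the size for a call. PCSK2, whose product SCG5 assists, read 0.000127 FPKM or less in MRC5, with deposited intervals that reached up to 0.0507 FPKM.

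**Figure D1:**
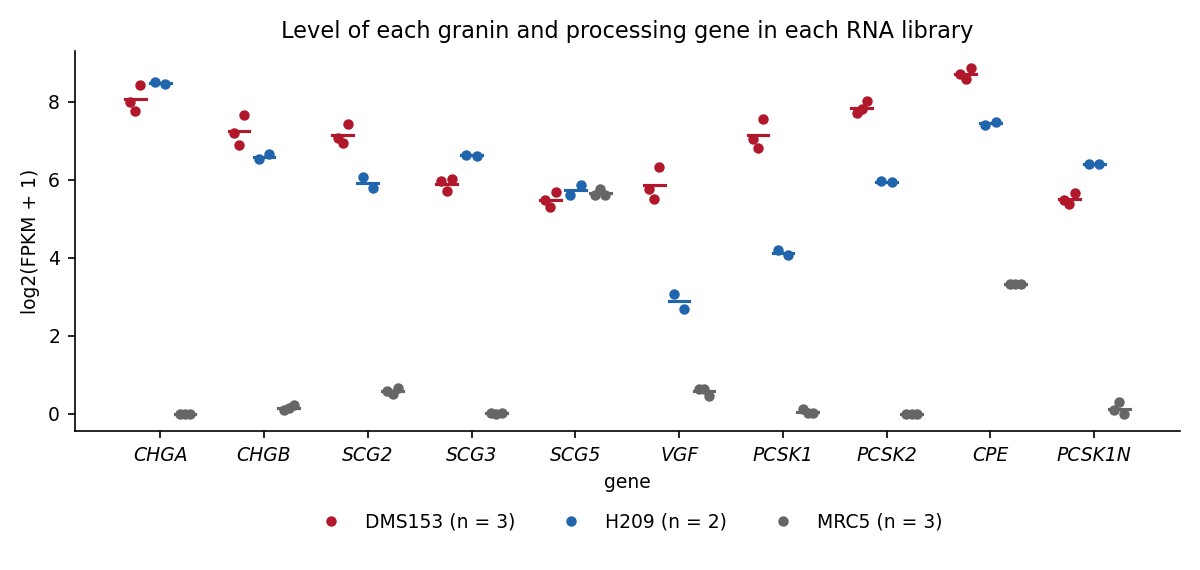
Level of each of the 10 genes as log2(FPKM + 1), on the vertical axis, in every RNA library of DMS153 (red, n = 3), H209 (blue, n = 2) and MRC5 (grey, n = 3), with a bar at the mean of the line. SCG5 is the gene at which all lines meet, CPE is the other gene above 1 FPKM in MRC5, and VGF and PCSK1 show the widest gaps between DMS153 and H209.

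The summed granin level, in FPKM as deposited, overlapped between the carcinoma lines, and its makeup did not. The 6 granin genes summed to 695, 595 and 916 FPKM in DMS153, to 673 and 664 in H209 and to 48.9, 54.1 and 49.0 in MRC5. CHGA held 36.8% to 37.9% of the sum in DMS153 and 52.7% to 53.7% in H209. SCG2 held 18.7% to 20.7% against 8.17% to 9.79%, VGF 7.57% to 8.74% against 0.817% to 1.11%, and SCG3 6.97% to 8.89% against 14.7% to 14.8%. In MRC5, SCG5 alone held 97.6% to 98.0%. The H209 totals in FPKM fell inside the range of the DMS153 totals, whereas the shares of these 4 genes did not overlap. This order of totals depends on scaling: with each library scaled to the same summed FPKM (TPM), microRNA loci included, the sums were 858, 719 and 1088 in DMS153 and 1296 and 1247 in H209, so that H209 was the higher line without overlap. The totals still overlapped under median ratio scaling and when small RNA and mitochondrial genes were left out of the scaling, and these alternatives for the sum were chosen after seeing the data.

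The convertases differed between the carcinoma lines more than most granins did. PCSK1 (ENSG00000175426.6, chr5:95726119-95769847), the gene of PC1/3, stood at 131, 112 and 187 FPKM in DMS153, 17.3 and 15.8 in H209 and 0.0926, 0.0223 and 0.00870 in MRC5. PCSK2 (ENSG00000125851.5, chr20:17206752-17465223), the gene of PC2, stood at 208.8, 226 and 261 FPKM in DMS153 and 61.6 and 60.7 in H209. DMS153 was higher in both, by a ratio of mean FPKM of 8.67 for PCSK1 and 3.79 for PCSK2. PCSK2 exceeded PCSK1 in all 5 carcinoma libraries, with a ratio of 1.59, 2.01 and 1.40 in DMS153 and 3.56 and 3.84 in H209. The tilt toward PCSK2 was thus larger in both H209 libraries than in any DMS153 library. In MRC5 both genes were too low for a ratio.

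CPE (ENSG00000109472.9, chr4:166282346-166419472), which encodes the carboxypeptidase that acts after both convertases, was the highest of the 10 genes in DMS153. It stood at 417, 381 and 467 FPKM there, at 170 and 179 in H209 and at 9.04, 9.15 and 9.01 in MRC5. Among the 19066 tested genes its mean ranked at 163 in DMS153, 339 in H209 and 7199 in MRC5. As MRC5 lay well above 0, a fold can be given: the mean was 46.5 times that of MRC5 in DMS153 and 19.2 times in H209. CPE exceeded CHGA in each DMS153 library, at 1.63, 1.74 and 1.34 times, and stayed below it in both H209 libraries, at 0.472 and 0.510 times.

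The genes of the convertases' binding partners did not follow their enzymes. PCSK1N (ENSG00000102109.7, chrX:48689504-48694035), which encodes the PC1/3 inhibitor proSAAS, stood at 44.1, 41.0 and 49.99 FPKM in DMS153 and at 83.8 and 83.3 in H209. In MRC5 it read 0.0646 and 0.237 FPKM and was listed at 0 in 1 library. The line with less PCSK1 therefore had more PCSK1N. The ratio of PCSK1N to PCSK1 was 0.337, 0.365 and 0.268 in DMS153 against 4.84 and 5.27 in H209. For SCG5 and PCSK2 the ratio was 0.209, 0.170 and 0.193 in DMS153 against 0.778 and 0.941 in H209. Ratios within a library are unchanged by dividing all its values by 1 factor, and both pairs kept the lines apart without overlap.

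**Figure D2:**
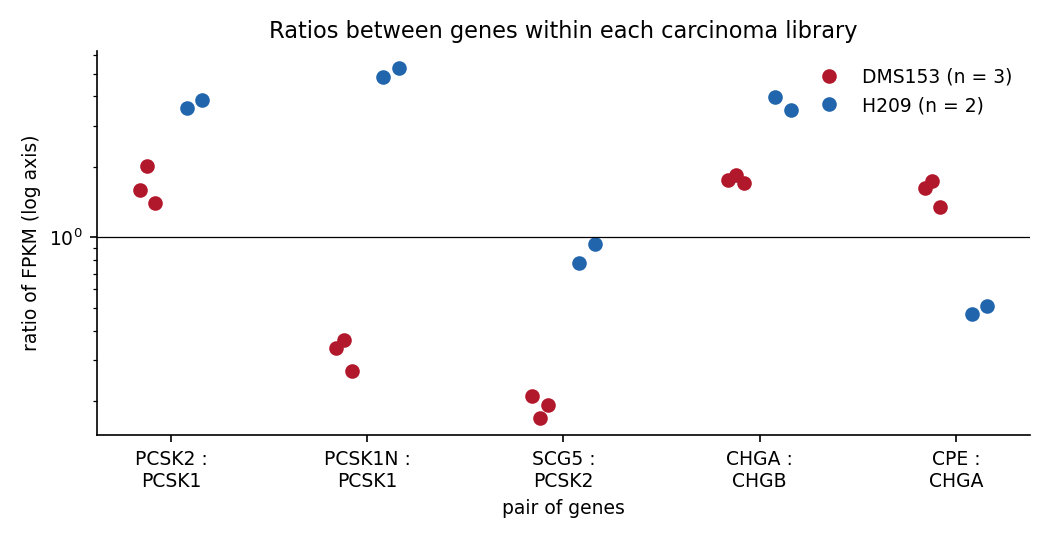
Ratio of the FPKM of 2 genes within each carcinoma library, on a log axis with a line at 1, for DMS153 (red, n = 3) and H209 (blue, n = 2). The ratio of PCSK1N to PCSK1 lies below 1 in all DMS153 libraries (0.268 to 0.365) and above 1 in both H209 libraries (4.84 and 5.27), and that of CPE to CHGA lies on the other side of 1 in each line.

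Ordered by mean level, DMS153 ran from CPE (422 FPKM) through CHGA (274), PCSK2 (232), CHGB (156), PCSK1 (143) and SCG2 (143) to VGF (59.5), SCG3 (59.1), PCSK1N (45.04) and SCG5 (44.1). The libraries of CHGA and PCSK2 overlapped, as did those of CHGB, PCSK1 and SCG2, and VGF overlapped with each of SCG3, PCSK1N and SCG5. PCSK1N and SCG5 also overlapped with each other. H209 ran from CHGA (356 FPKM) through CPE (175), SCG3 (98.3), CHGB (95.5), PCSK1N (83.5), PCSK2 (61.1), SCG2 (60.1) and SCG5 (52.5) to PCSK1 (16.5) and VGF (6.46). Here SCG3 overlapped with CHGB and SCG2 with both PCSK2 and SCG5, while the other neighbours were apart. PCSK1 and VGF, in the upper and middle ranks in DMS153, were the lowest of the 10 in H209.

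Against the fibroblasts, 9 of the 10 genes were called higher in DMS153 and 9 in H209, with SCG5 the one left out in both. A gene was called at a limma adjusted p below 0.05 with a change of at least 1 log2 unit, and 34.0% of all tested genes were called higher and 16.4% lower in DMS153, 33.0% and 14.9% in H209. None of the 10 was called lower. Their median change was 6.23 in DMS153 and 5.65 in H209, beside 0.44 and 0.46 over all tested genes. These comparisons share the MRC5 libraries, so that the same genes appear in both is not independent. The smallest change among the 9 was that of VGF in H209 (2.30). In DMS153 they ranged from 5.29 for VGF to 8.07 for CHGA. In libraries made from whole cultures, fewer cells that express a gene and less RNA per cell cannot be told apart.

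Between the carcinoma lines, 5 of the 10 genes were called higher in DMS153 and 0 lower, beside 13.8% and 13.4% of all tested genes. The largest differences were those of PCSK1 (3.01 ± 0.18 log2 units, adjusted p = 6.77e-07) and VGF (2.99 ± 0.22, 2.59e-06), followed by PCSK2 (1.90 ± 0.09, 2.02e-07), CPE (1.26 ± 0.09, 1.58e-06) and SCG2 (1.22 ± 0.14, 5.01e-05), all from limma. As ratios of mean FPKM these were 8.67, 9.20, 3.79, 2.42 and 2.37. All 3 enzymes that cut or trim precursors were thus in the group higher in DMS153, with 2 of the 6 granins.

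A further 4 genes differed by less than 1 log2 unit with a limma adjusted p below 0.05. CHGB was higher in DMS153 by 0.67 (95% interval 0.24 to 1.09, adjusted p = 0.00987). PCSK1N differed by -0.88 (-1.14 to -0.63, 9.13e-05), SCG3 by -0.73 (-0.95 to -0.52, 0.000103) and CHGA by -0.40 (-0.76 to -0.04, 0.0462), each higher in H209. Over the alternatives the limma adjusted p ranged from 0.000222 to 0.193 for CHGA, from 0.00123 to 0.927 for CHGB, from 7.68e-06 to 0.0769 for PCSK1N and from 1.96e-06 to 0.00178 for SCG3.

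The balance between the carcinoma lines rests in part on scaling. When each library was divided by its summed FPKM, microRNA loci included, 3 genes were called higher in DMS153 (PCSK1, VGF and PCSK2) and 3 lower: CHGA at -1.05, SCG3 at -1.38 and PCSK1N at -1.53. SCG2 at 0.58 and CPE at 0.61 were then under the size needed for a call, and CHGB stood at 0.02. This scaling moved the median of all genes from -0.04 to -0.59 in this comparison. Scaling without small RNA and mitochondrial genes, median ratio scaling and quantile normalization each left 5 called higher and 0 lower.

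**Figure D3:**
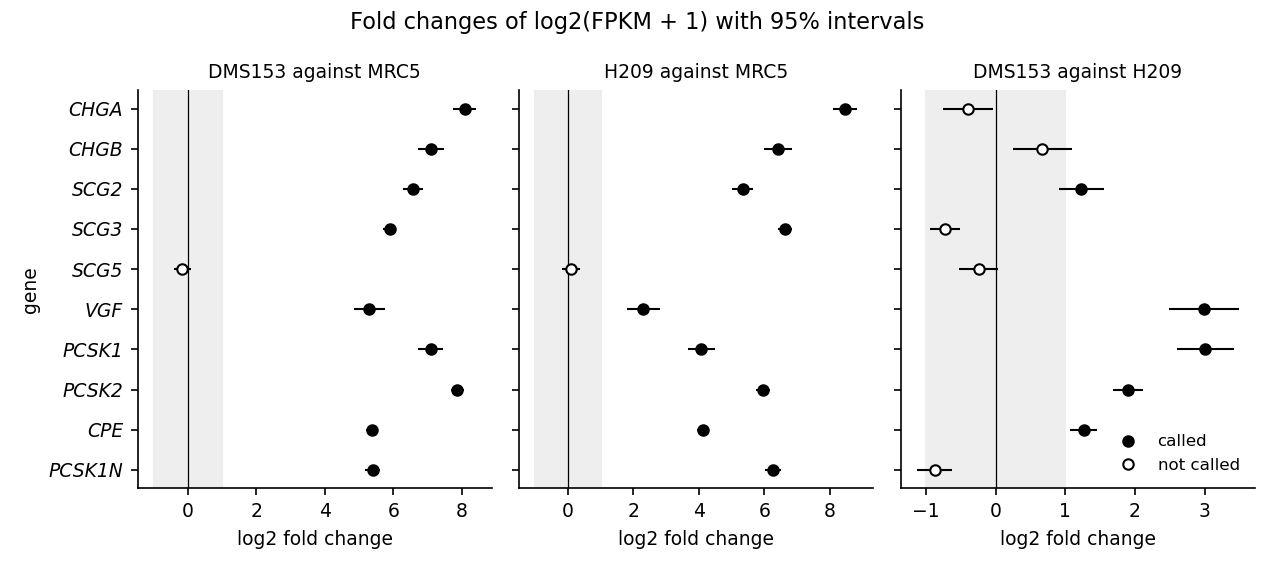
Difference in log2(FPKM + 1) of each gene in the 3 comparisons, with its 95% interval from limma. Filled points were called, the grey band marks changes under 1 log2 unit, and in the panel on the right PCSK1 and VGF stand near 3 while PCSK1N, SCG3, CHGA and SCG5 lie below 0.

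Within DMS153 the libraries were ordered alike by most of these genes. Replicate 3 was the highest and replicate 2 the lowest for 9 of the 10, with PCSK2 the exception. The same order held in 14.0% of the 8074 tested genes with a mean of at least 10 FPKM in DMS153. The ratio of replicate 3 to replicate 2 was 1.78 for VGF, 1.72 for CHGB, 1.66 for PCSK1 and 1.59 for CHGA, with a median of 1.35 over the 10 genes and 0.977 over the 8074. The 3 genes with TGACGTCA in the promoter window ranged from 1.59 to 1.78 and the other 5 with a promoter entry from 1.16 to 1.31, a grouping made after the values were seen and not tested. CHGB (1.72) and SCG2 (1.39) have no promoter entry and could not be placed, and both lay above the range of those 5. Deposited intervals of single values extended 2.92% to 7.60% to either side for these genes in carcinoma libraries, less than the gaps between the replicates of VGF, CHGB, PCSK1 and CHGA. The share of microRNA loci was also highest in replicate 3 and lowest in replicate 2 (44.1% and 39.9%), and its part in this order was not tested.

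**Figure D4:**
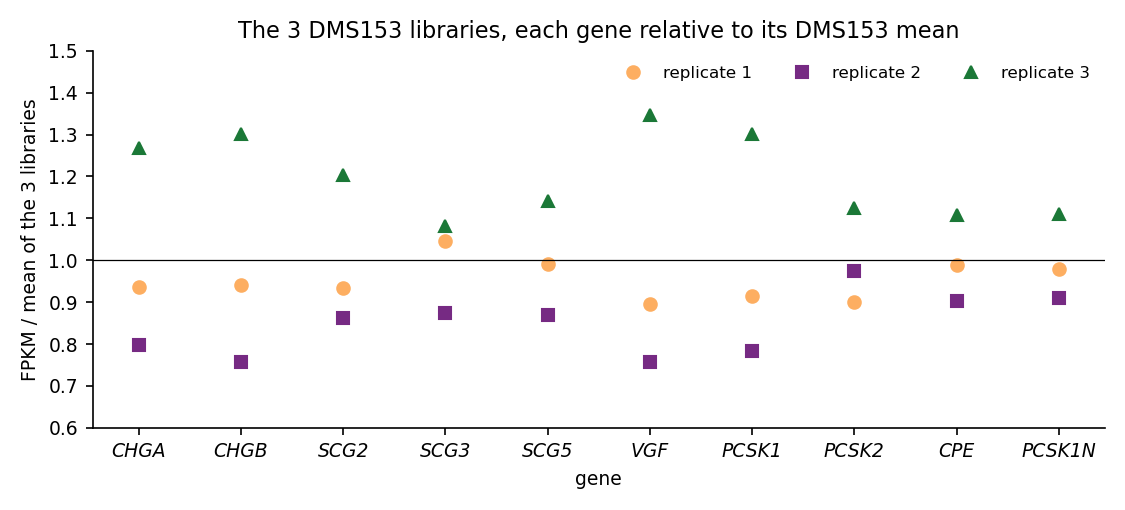
FPKM of each gene in the 3 DMS153 libraries divided by the mean of those libraries, so that 1 is the mean of the line. Replicate 3 (triangles) is highest for all 10 genes, and replicate 2 (squares) is lowest for all but PCSK2.

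Other enzymes that act on secreted peptides or proteins were called in both directions. Of 19 tested genes for amidation and other processing, 2 were called higher and 8 lower in DMS153 than in MRC5, and 4 higher and 8 lower in H209. Their median change was -0.83 and -0.81, beside medians of 0.44 and 0.46 over all tested genes, of which 34.0% were called higher and 16.4% lower in DMS153 and 33.0% and 14.9% in H209. The counts of the lists below are to be read against the same shares and medians. As for the members, a gene that reached 1 FPKM only in carcinoma or only in fibroblast libraries had to differ between them. How many such genes each list holds was not counted, so these counts support nothing by themselves. PAM, which makes the C-terminal amide of many neuropeptides, was highest in the fibroblasts: 210 to 223 FPKM in MRC5, 106 to 135 in DMS153 and 28.8 to 29.9 in H209. PAM was lower in H209 than in MRC5 by a log2 change of -2.83 ± 0.10 and higher in DMS153 than in H209 by 2.00 ± 0.10 (limma adjusted p = 6.16e-09 and 1.9e-07). Against MRC5 it stood at -0.83 in DMS153, under the size for a call, though it was called lower there under median ratio and summed-FPKM scaling (-1.31 and -1.26).

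QPCT, which forms N-terminal pyroglutamate on peptides, stood at 57.1 ± 7.67 FPKM (SD) in DMS153 and 41.7 ± 0.0944 in H209 against 0.737 ± 0.251 in MRC5, and was called higher in both carcinoma lines (5.07 ± 0.12 and 4.63 ± 0.14 log2 units, SE). The constitutive convertase FURIN was lower in DMS153 (4.93 ± 0.316 FPKM) than in H209 (20.6 ± 0.338) and MRC5 (21.8 ± 1.16). The lysosomal proteases CTSB and CTSL were lower in both carcinoma lines, CTSB at 954 FPKM in MRC5, 51.9 in H209 and 14.8 in DMS153, and CTSL at 117, 2.90 and 9.1e-05. CPZ, a carboxypeptidase of the extracellular matrix, stood at 11.2 FPKM in MRC5 and was listed at 0 in both H209 libraries. CPD, a carboxypeptidase of the trans-Golgi network, averaged 76.2 FPKM (DMS153), 24.6 (H209) and 53.8 (MRC5), with H209 lowest as for PAM.

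Genes for releasing and making granules were followed as a pair of lists. Of 31 tested exocytosis and docking genes, 20 were higher and 4 lower in DMS153, and 23 and 3 in H209, with a median change of 2.47 and 2.204 (all tested genes: 34.0% higher and 16.4% lower, and 33.0% and 14.9%). SYT13 and SYT4, of the synaptotagmin family, were listed at 0 in all MRC5 libraries and stood at 104 and 27.5 FPKM in DMS153 and 21.8 and 48.9 in H209. CADPS, which primes granules for fusion, averaged 68.1 FPKM (DMS153), 24.0 (H209) and 0.00962 (MRC5). CPLX2, a complexin that binds the fusion complex, averaged 31.1, 61.1 and 0.0430 FPKM in those 3 lines.

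Of 30 granule formation and membrane genes, 19 were higher and 1 lower in DMS153, and 18 and 0 in H209, with a median change of 2.49 and 1.31, beside the same 34.0% and 16.4%, and 33.0% and 14.9%, of all tested genes. KIF1A, a motor that carries dense-core vesicles, reached 220 ± 8.31 FPKM in DMS153 and 271 ± 8.72 in H209 and 0.118 in MRC5. PTPRN2, a granule membrane protein, averaged 61.5 ± 5.92 FPKM in DMS153 and 60.1 ± 4.58 in H209, a difference of 0.03 ± 0.09 log2 units (limma adjusted p = 0.776). ICA1, known as an islet cell autoantigen, averaged 169 and 141 FPKM in DMS153 and H209, and DNER, a membrane protein with EGF-like repeats, 55.2 and 12.1.

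RNA of peptide precursors, the class of protein that these enzymes cut, was counted in the same way. Of 43 precursors listed, 21 were tested, with 10 higher and 3 lower in DMS153 and 16 and 1 in H209 against MRC5, where all tested genes gave 34.0% and 16.4%, and 33.0% and 14.9%. The median change was 0.67 in DMS153, near the 0.44 of all tested genes, and 1.93 in H209. Between the carcinoma lines 7 precursors were higher in DMS153, 7 lower and 7 not called, with a median of 0.08 (13.8% higher and 13.4% lower over all tested genes). GRP, which encodes the gastrin-releasing peptide precursor, reached 776 ± 19.2 FPKM in DMS153 and 166 ± 2.00 in H209. CALCA, the calcitonin precursor, stood at 391 ± 121 and 38.1 ± 1.57, and NTS, the neurotensin precursor, at 58.6 ± 31.7 and 3.51 ± 0.473. ADCYAP1, the precursor of PACAP, had the opposite order, at 18.8 ± 1.63 in DMS153 and 104 ± 3.82 in H209. GRP, NTS and ADCYAP1 were listed at 0 in all MRC5 libraries, and CALCA reached at most 0.00978 there. They passed the filter only through carcinoma libraries and so had to differ from MRC5.

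Of 35 tested transcription factors of neuroendocrine genes, 23 were higher and 5 lower in DMS153, and 23 and 6 in H209, with a median change of 2.44 and 2.22, again beside 34.0% and 16.4%, and 33.0% and 14.9%, of all tested genes. INSM1 (196 and 294 FPKM) and NKX2-1 (69.0 and 87.4) were high in both DMS153 and H209 and listed at 0 in MRC5, and ST18 stood at 208 and 37.1 beside 0.0139. Under each scaling tried, these lists kept more genes higher than lower against MRC5, and the list of amidation and other processing enzymes kept more lower than higher. Between the carcinoma lines the lists of exocytosis genes (8 higher in DMS153, 6 lower) and granule formation genes (6 and 5) went to 4 and 12, and to 3 and 9, under summed-FPKM scaling, which took all tested genes from 2622 higher and 2547 lower of 19066 to 1814 and 6630 of 20596.

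By Euclidean distance of log2(FPKM + 1) over the 8 libraries, the genes nearest to CHGA were EPCAM (0.722), KIF1A (0.926), SPINT2 (1.13), TPD52 (1.14) and INSM1 (1.22). EPCAM, an epithelial adhesion molecule, averaged 290 FPKM (DMS153), 280 (H209) and 0.110 (MRC5). The mean of the 10 genes was matched most closely by FAM189A2 and STYK1 (Pearson r = 0.9997 for each) and CHMP4C, AC006042.6 and MFSD6 (0.9996 for each). The 8 libraries form only 3 lines and share the step between carcinoma and fibroblast, so these values are a description.

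The Hi-C domain lists placed CHGA differently in DMS153 than in H209 and MRC5, with 1 library each and no test. The domains at CHGA scored 2.031 (DMS153), 1.608 (H209) and 2.697 (MRC5), on a scale of unstated meaning. Only that of MRC5 was in the upper part of its list when split at the median score. All other domains touching members in the carcinoma lines were in that part. Keeping only that part would remove the domain at CHGA in DMS153 and H209 but not in MRC5. In DMS153 the whole CHGA locus lay in a domain of 80 kb, chr14:93340000-93419998. In H209 and MRC5 the domain that touched the gene began at position 93400000 and ran to 93659998 (260 kb) and 93639998 (240 kb). It held only the last 1639 bases of the locus, 13.4%, and left the CHGA start site outside every domain, in a gap that opened at 93259998. A listed domain end lay inside CHGA, 10.6 kb from its start site, in H209 and in MRC5. Domain ends lie on a 20 kb grid and the locus spans 12214 bases, so a placement within the gene is finer than 1 grid step. CHGA averaged 356 FPKM in H209 and 0.00284 in MRC5, and a link between domain ends and level was not tested.

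The right end of the DMS153 domain lay 20.0 kb, 1 step of the grid, from the left end in the other lines, and its left end was 60.0 kb from the nearest end in either. To the right of it, DMS153 had no domain as far as 93680000, where H209 and MRC5 had theirs. Of the other genes in these domains, ITPK1, an inositol phosphate kinase, had means of 19.7 (DMS153), 38.3 (H209) and 7.91 FPKM (MRC5), and was called higher in both carcinoma lines (1.22 ± 0.07 and 2.14 ± 0.08, limma adjusted p = 1.76e-07 and 1.01e-08), though at 0.78 under median ratio, 0.86 under quantile and 0.83 under summed-FPKM scaling the first was no longer called. MOAP1 (15.8, 31.6 and 8.01 FPKM) and TMEM251 (9.20, 15.4 and 3.75), which lay in the H209 domain only, had the same order of lines. MOAP1 was not called in DMS153 against MRC5, at 0.90. RP11-862G15.1, upstream of CHGA inside the DMS153 domain, stood at 1.13 FPKM (DMS153) and 0.510 (H209) and was listed at 0 in MRC5. None of the neighbours approached the step of CHGA itself.

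**Figure D5:**
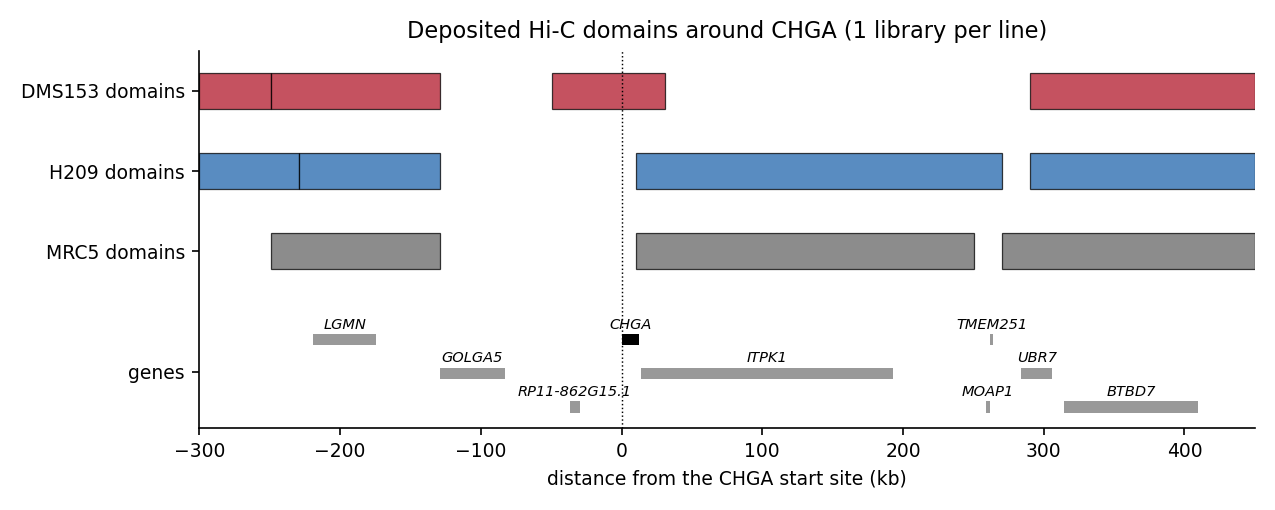
Deposited Hi-C domains (bars, 1 row per line) and selected genes around CHGA, by distance in kb from its start site (dotted line). The DMS153 domain spans the start site and the gene. In H209 and MRC5 the domain begins 10.6 kb past the start site, less than 1 step of the 20 kb grid.

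The other members showed no single arrangement. CHGB lay wholly in a domain of 580 kb (chr20:5500000-6079998) and SCG2 in one of 860 kb (chr2:223820000-224679998), each with identical ends in DMS153 and H209, and neither gene was touched by a domain in MRC5. SCG3 and PCSK1N lay wholly in a domain in all 3 lines, and SCG5 and VGF in none. PCSK1 lay wholly in a domain of 260 kb in MRC5, where it was near 0, and in H209 no domain touched it. In DMS153 a domain began inside PCSK1 and held 22.5% of it. That end lay 9.85 kb from the start site, less than 1 step of the 20 kb grid. PCSK2 had 90.2% of its locus in a domain in every line, with the end inside the gene at the same position, 17439998. CPE likewise had a domain end at 166399998 inside its locus in all 3 lines.

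In all, 5 of the 10 loci lay wholly in a domain in DMS153, 4 in H209 and 3 in MRC5, beside 39.7%, 40.8% and 40.1% of all tested genes. A domain end lay inside 3 of the 10 in each line, beside 18.6%, 16.1% and 15.3%. No test was made of these shares. By the midpoint of the locus in place of the whole locus, the counts were 7 (DMS153), 6 (H209) and 5 (MRC5). This is a looser rule, and its share over all tested genes was not computed. These midpoint counts are therefore not to be set beside the shares above. The lists held 5023 domains (DMS153), 3987 (H209) and 3701 (MRC5), and their median length was shorter in DMS153 (240.0 kb) than in the other lines.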

How the data were processed

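RNA tables give FPKM per gene with interval bounds, deposited by the authors, per the file headers. The submitters' processing notes name TopHat2 2.1.0, Bowtie2, Cufflinks 2.2.0, HOMER 4.8 and hg19. How RNA was selected, its strand and the read counts were not given in the sources used here. The Hi-C files, deposited by the authors without a header, list domains on a 20 kb grid with a score of unstated meaning. RNA libraries titled DM153 have DMS153 in their cell line field and were used as DMS153.

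FPKM was analysed as log2(FPKM + 1) with limma 3.58.1 in R 4.3.3. Genes with at least 1 FPKM in at least 2 libraries (19066) entered 1 fit of 8 libraries with a mean per line, 5 residual degrees of freedom and eBayes with a trend. Tests were 2-sided with Benjamini-Hochberg adjustment over all tested genes, and a call needed an adjusted p below 0.05 and a change of at least 1. The fit was tested on simulated data. In 163 genes some library had a failed status, and their values were kept. Relative depth was read from the most frequent ratio of low values. Domain starts were raised by 1 so that positions count from 1. Domain ends within 40 kb counted as shared, whether left or right ends. Tables were made with Python 3.11.15 and pandas 2.3.3. Alternatives were pseudocount, filters, scaling, failed genes, pairwise fits, trend, the replicate number and leaving out each library.

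The members and gene lists were chosen with earlier results of these data known. All 10 members are named. From each list up to 4 called genes with the largest change in any comparison are named, and any gene of the processing enzyme list may be. Genes inside the CHGA domains are named from a mean of 1 FPKM, and 5 genes nearest to CHGA and to the members' mean. One gene that this rule names is not reported here.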

Additional observations from a re-analysis of the deposited data

Results flagged for a closer look

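For 5 genes the change against MRC5 differed between the carcinoma lines, by the test of DMS153 against H209 in the same limma fit. On the log2(FPKM + 1) scale the change in DMS153 exceeded that in H209 by 3.01 for PCSK1, 2.99 for VGF, 1.90 for PCSK2, 1.26 for CPE and 1.22 for SCG2, and all 3 DMS153 libraries lay above both H209 libraries for each. Under summed-FPKM scaling SCG2 (0.58) and CPE (0.61) were below the size for a call.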

How the results depend on the processing

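Over 19 alternatives, the 10 genes gave 570 values in the 3 comparisons, of which 562 kept direction and call. Against MRC5 the 9 genes called higher in each carcinoma line stayed 9 throughout. Under summed-FPKM (TPM) scaling, 3 genes in place of 5 were called higher in DMS153 than in H209 and 3 in place of 0 lower. The sign reversed for SCG5 alone: to 0.14 in DMS153 against MRC5 when scaled without small RNA and mitochondrial genes, and in H209 against MRC5 to -0.53 under median ratio scaling and to -0.045 without H209 replicate 2 (0.20 without H209 replicate 1), where the lone H209 library is assumed to vary like the others. The cause was not tested. Scaling moved the median of all genes from 0.44 to between -0.03 and 0.68 in DMS153 against MRC5 and from 0.46 to between 0.02 and 0.70 in H209 against MRC5, and quantile normalization changed 6489 higher and 3123 lower genes in the first to 4242 and 4432.

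With a replicate block, 9, 9 and 5 genes were called as without it. The labels do not say that the replicate numbers pair libraries, so they were not taken to. Deviations of same-numbered libraries correlated at -0.0118 to 0.0771 for DMS153 with MRC5, 0.0115 and 0.0364 for DMS153 with H209, and 0.092 and 0.123 for H209 with MRC5. For different numbers the values were -0.113 to 0.0541, -0.0364 to 0.032 and -0.123 to 0.0503, in the same order. The 2 H209 libraries deviate from their mean by opposite amounts, so their values are not independent. For the domains, the counts of whole loci went from 5, 4 and 3 (DMS153, H209, MRC5) to 7, 6 and 5 by midpoint. Ends of the DMS153 domain at CHGA counted as shared with H209 and with MRC5 went from 1 to 2 each within 80 kb. Both were matched to the same position, 93400000, so this does not mean that both ends recur. Ends of the MRC5 domain counted as shared with DMS153 went from 2 to 1 within 20 kb. Left and right ends were pooled, and within 40 kb every match with DMS153 at CHGA paired a left end with a right end. With no counts in the files, no limit from depth could be set for the smallest MRC5 levels. Their deposited intervals reached 0.0507 FPKM for PCSK2 and 0.0774 for CHGA, with an upper bound of 0 in the CHGA library listed at 0. Changes against such levels depend on the pseudocount. Over all the alternatives, which also vary scaling, filters and libraries, the change of CHGA in DMS153 against MRC5 ran from 7.88 to 11.3.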
